A study of Mus musculus with 15 samples.

Results

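The genes described here are 9 genes whose RNA is known from lymph nodes, the organs in which lymphocytes meet antigen: Cd79a, Ms4a1 and Cr2 of B cells, Cd3e, Cd3d, Cd3g and Lck of T cells, and Glycam1 and Madcam1 of high endothelial venules. They were chosen by gene name from 55536 genes as a readout of lymph node tissue in pieces of skeletal muscle, and all 9 were found in both deposited tables. The 15 samples were skeletal muscle of mice aged 2 months and labelled male, 5 samples in each of 3 groups. Controls were labelled wild type. The knockout group was labelled as lacking PdgfrB, a receptor for platelet-derived growth factor, and the D489V group carried a PdgfrB allele described as constitutively active, both named as specific to myogenin, a gene of differentiating muscle cells. The labels give neither the muscle that was taken nor a strain, a Cre line or a dissection batch, so a batch and a group cannot be told apart.

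Lymph nodes lie in fat beside muscles, such as the popliteal node behind the knee, and can be taken along when muscle is dissected. A node holds follicles of B cells around follicular dendritic cells, and a zone of T cells crossed by high endothelial venules. Lymphocytes leave the blood through these venules, whose cells make sulphated mucins such as the product of Glycam1. The integrin that contains the Itgb7 chain binds the product of Madcam1. Resting skeletal muscle itself holds few lymphocytes.

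Promoter sequences are shown because most of the genes were at high levels in the same samples. RefSeq (GRCm38.p6) held promoters for 8 members, with 9 starts in all because Lck has 2. The 6 shown are those of Glycam1, which had no match, and 5 chosen because they held a match to a motif searched; those of Cr2 and Cd3g, which held none, and of the inner Lck start, which held 1, are not printed. Each line gives the 250 bases before the start, 5′ to 3′ on the strand of the gene. Capitals mark a match, on either strand, to the core AGGAAGT bound by ETS factors, to TGTGGTT bound by RUNX factors, or to GGACTTTCC bound by NF-kB. No marked match overlaps another. Cd79a is at chr7:24897247-24897496 on the plus strand, Cd3d at chr9:44981536-44981785 on the plus strand, Cd3e at chr9:45009612-45009861 on the minus strand, the outer start of Lck at chr4:129573642-129573891 on the minus strand, Madcam1 at chr10:79664309-79664558 on the plus strand and Glycam1 at chr15:103565082-103565331 on the minus strand.
Cd79a: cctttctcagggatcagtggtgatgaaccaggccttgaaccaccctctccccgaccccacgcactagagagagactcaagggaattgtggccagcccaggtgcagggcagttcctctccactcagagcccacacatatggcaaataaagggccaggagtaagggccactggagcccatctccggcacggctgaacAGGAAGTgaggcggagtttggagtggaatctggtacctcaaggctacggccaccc
Cd3d: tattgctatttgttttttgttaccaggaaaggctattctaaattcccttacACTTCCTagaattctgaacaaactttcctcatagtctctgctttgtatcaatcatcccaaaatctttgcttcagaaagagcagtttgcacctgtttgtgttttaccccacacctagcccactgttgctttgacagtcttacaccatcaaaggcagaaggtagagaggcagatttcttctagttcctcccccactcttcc
Cd3e: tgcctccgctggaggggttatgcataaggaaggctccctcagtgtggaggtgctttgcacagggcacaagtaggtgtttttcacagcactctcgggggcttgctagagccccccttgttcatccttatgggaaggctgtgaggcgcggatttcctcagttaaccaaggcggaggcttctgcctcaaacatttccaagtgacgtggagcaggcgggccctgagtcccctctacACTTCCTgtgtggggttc
Lck (outer start): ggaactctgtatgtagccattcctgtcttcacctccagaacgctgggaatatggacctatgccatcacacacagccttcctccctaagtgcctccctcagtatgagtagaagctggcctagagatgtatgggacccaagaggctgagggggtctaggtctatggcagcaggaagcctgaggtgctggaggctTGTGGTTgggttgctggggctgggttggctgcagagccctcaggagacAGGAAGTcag
Madcam1: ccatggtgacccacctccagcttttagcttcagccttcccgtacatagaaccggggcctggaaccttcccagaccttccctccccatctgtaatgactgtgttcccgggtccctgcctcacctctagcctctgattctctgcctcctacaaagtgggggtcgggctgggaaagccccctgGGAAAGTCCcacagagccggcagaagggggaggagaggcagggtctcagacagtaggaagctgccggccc
Glycam1: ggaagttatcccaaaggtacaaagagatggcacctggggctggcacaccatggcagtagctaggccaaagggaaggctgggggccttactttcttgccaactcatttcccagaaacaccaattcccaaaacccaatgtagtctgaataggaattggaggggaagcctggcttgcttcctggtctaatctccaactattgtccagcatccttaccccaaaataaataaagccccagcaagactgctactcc

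The ETS letters were in 5 of the 9 member promoters, those of Cd79a, Cd3d, Cd3e and both starts of Lck. They were in 7.69% of the 32851 mouse promoters of the same length. In Cd79a the match ended 49 bases before the RefSeq start, in Cd3e 12 bases and in the outer Lck promoter 4 bases. The gene positions given below came from GENCODE instead, and for Cd79a and Cd3e those begin further upstream. By those positions the Cd79a match lies inside the gene and the Cd3e match runs across its start. The RUNX letters were in the outer Lck promoter, against 4.4% of all promoters. The NF-kB letters were in Madcam1, 70 to 62 bases before its start, against 0.283% of all promoters. The octamer ATTTGCAT, which was in 1.6% of all promoters, was in none of the 9. The motifs were chosen after the sequences had been read, and a match describes letters, not binding.

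The tables were on one scale, with identical control columns, 29815559 to 36489777 normalized counts per sample and 20799 to 23783 genes above 0. Pdgfrb, the targeted gene, had 1673 to 1848 normalized counts in controls, against 958 to 1628 in the knockout group and 820 to 1062 in the D489V group. The labelled tissue was checked with 7 muscle fibre genes, whose summed normalized counts were 5224220 to 7445179 in every sample. Knockout 3 stood apart from the label male, with a normalized count of 3165 for Xist, the RNA of the inactive X chromosome, against at most 101 in the other samples. Its normalized count for the Y-linked gene Ddx3y was 367, against 1437 to 3887 elsewhere. It also held 245 normalized counts of Krt8 and 149 of Epcam, genes of simple epithelia, against at most 19 and 14 in the others. Group means, list counts, likeness and changes between groups are therefore also given without knockout 3.

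All members but Madcam1 were higher in 4 of the 15 samples, control 5 and knockout 3, 4 and 5, than in any of the other 11. Summed over the 9 genes, the normalized counts were 79, 52, 28, 18 and 3431 in controls 1 to 5. In knockout 1 to 5 they were 14, 28, 1659, 3350 and 966, and in D489V 1 to 5 they were 110, 79, 45, 153 and 86. The split ran through the control and the knockout groups, while no D489V sample was among the high ones. In these bulk samples, fewer cells of a type and less RNA per cell cannot be told apart.

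**Figure D1:**
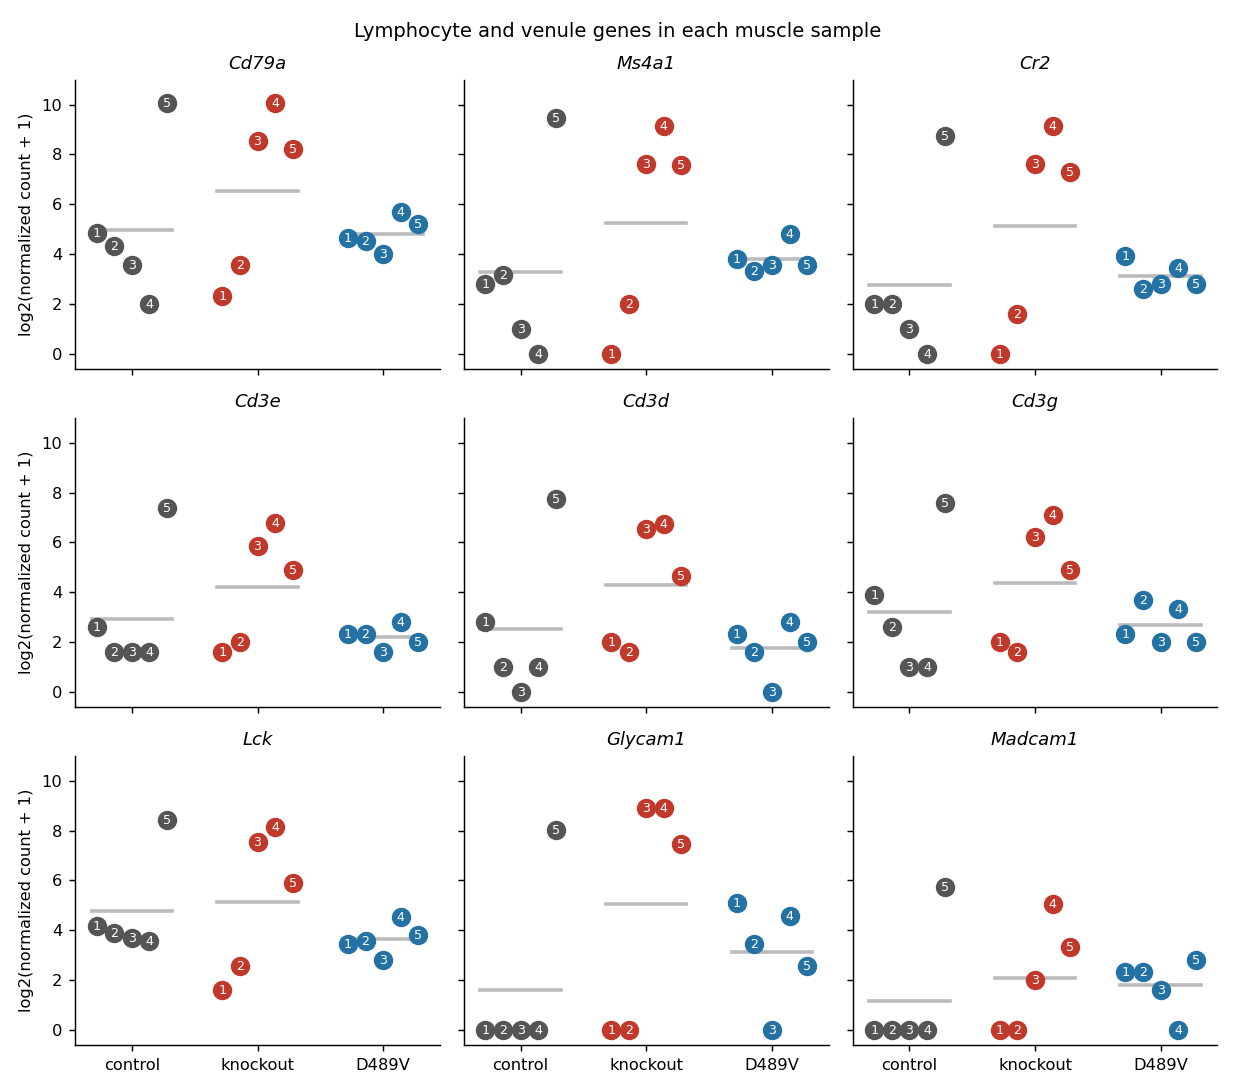
Each panel shows 1 gene, with log2(normalized count + 1) on the vertical axis and the 3 groups of 5 samples on the horizontal axis. Points carry the replicate number and grey lines mark group means on that scale. Control 5 and knockout 4 and 5 lie above the 11 lower samples in every panel, and knockout 3 in all but Madcam1.

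Among the B cell genes, Cd79a (ENSMUSG00000003379, GRCm38 chr7:24897381-24902197, plus strand) encodes a signalling chain of the B cell receptor. Its normalized counts were 28, 19, 11, 3 and 1077 in controls 1 to 5, 4, 11, 374, 1072 and 297 in knockout 1 to 5, and 24, 22, 15, 50 and 36 in D489V 1 to 5. Control 5 was within a few counts of knockout 4, and the other controls overlapped both other groups. Ms4a1 (ENSMUSG00000024673, chr19:11249675-11266241, minus strand) encodes CD20, a surface protein of mature B cells. For Ms4a1 the normalized counts were 6, 8, 1, 0 and 709 in controls, 0, 3, 198, 566 and 188 in knockout, and 13, 9, 11, 27 and 11 in D489V samples. All 5 D489V samples lay above the 4 low controls and below the 3 high knockout samples. Cr2 (ENSMUSG00000026616, chr1:195136811-195176716, minus strand) encodes a complement receptor of mature B cells and follicular dendritic cells. Cr2 was at 3, 3, 1, 0 and 427 normalized counts in controls, 0, 2, 193, 564 and 158 in knockout, and 14, 5, 6, 10 and 6 in D489V samples. Here knockout 4, not control 5, was the highest sample.

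The T cell genes were highest in the same 4 samples. Cd3e (ENSMUSG00000032093, chr9:44998740-45009627, minus strand), Cd3d (ENSMUSG00000032094, chr9:44981786-44987339, plus strand) and Cd3g (ENSMUSG00000002033, chr9:44969572-44980431, minus strand) encode the CD3 chains that carry the signal of the T cell receptor. These genes lie within 40.1 kb, and the starts of Cd3g and Cd3d are 1354 bases apart and face away from each other. Cd3e was at 5, 2, 2, 2 and 164 normalized counts in controls, 2, 3, 57, 108 and 29 in knockout, and 4, 4, 2, 6 and 3 in D489V samples. Cd3d was at 6, 1, 0, 1 and 212 in controls, 3, 2, 92, 105 and 24 in knockout, and 4, 2, 0, 6 and 3 in D489V samples. Cd3g was at 14, 5, 1, 1 and 190 in controls, 3, 2, 74, 137 and 29 in knockout, and 4, 12, 3, 9 and 3 in D489V samples. For all 3 chains the order of the 4 high samples was control 5, knockout 4, knockout 3 and knockout 5. Lck (ENSMUSG00000000409, chr4:129548344-129573641, minus strand) encodes the kinase that phosphorylates the CD3 chains. Its normalized counts were 17, 14, 12, 11 and 342 in controls, 2, 5, 186, 285 and 58 in knockout, and 10, 11, 6, 22 and 13 in D489V samples. Lck was thus above 0 in every sample, and knockout 1 and 2 held less of it than any control or D489V sample.

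The venule genes were listed at 0 in more samples than any other member, 7 of 15 for Glycam1 and 7 of 15 for Madcam1. Glycam1 (ENSMUSG00000022491, chr15:103562759-103565081, minus strand) encodes a secreted, sulphated mucin of these venules and is also known from milk-producing mammary gland. It was at 0 in controls 1 to 4 and at 257 in control 5, at 0, 0, 482, 481 and 174 normalized counts in knockout, and at 33, 10, 0, 23 and 5 in D489V samples. Among the 11 lower samples, only 4 D489V samples therefore had Glycam1 above 0. Madcam1 (ENSMUSG00000020310, chr10:79664559-79668537, plus strand) encodes the addressin of mucosal venules. It was at 0 in controls 1 to 4 and at 53 in control 5, at 0, 0, 3, 32 and 9 in knockout, and at 4, 4, 2, 0 and 6 in D489V samples. Madcam1 was the exception to the common pattern, since knockout 3, at 3, lay within the D489V range. The annotation has genes on the opposite strand that overlap Ms4a1 and Cd3e, and whether the authors' counting used strand is not given in the sources used here.

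Levels between genes were compared as normalized counts per kilobase of exon. In control 5 Cd79a stood first at 739 per kilobase, followed by Glycam1 at 120, Lck at 117, Cd3d at 117 and Ms4a1 at 115. Cd3g at 58.1, Cr2 at 52.6, Cd3e at 40.2 and Madcam1 at 36.9 per kilobase came after them. Knockout 3 differed in that Glycam1, at 226 per kilobase, was close to Cd79a at 257, while Madcam1 was at 2.09. In knockout 5 Cd79a was at 204 and Glycam1 at 81.6 per kilobase, and the T cell genes lay between 7.11 for Cd3e and 19.8 for Lck.

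Relative to Cd79a, the B cell genes kept nearly the same proportion in the 4 samples with 100 or more Cd79a counts. Per 100 counts of Cd79a there were 65.8, 52.9, 52.8 and 63.3 counts of Ms4a1 in control 5 and knockout 3, 4 and 5, a range of 1.25-fold. Cr2 was at 39.7, 51.6, 52.6 and 53.2 per 100, a range of 1.34-fold. The T cell genes varied more. Cd3d was at 19.7, 24.6, 9.79 and 8.08 per 100 Cd79a counts, a range of 3.04-fold, with the higher values in control 5 and knockout 3. Lck ranged from 19.5 in knockout 5 to 49.7 in knockout 3. The venule genes varied most of the members: Glycam1 was at 23.9 per 100 Cd79a counts in control 5, 129 in knockout 3, 44.9 in knockout 4 and 58.6 in knockout 5. Per 100 Glycam1 counts, Madcam1 was at 20.6, 0.622, 6.65 and 5.17 in the same order. Knockout 3 was thus the sample with the most Glycam1 and the least Madcam1 for its Cd79a. It was also the sample with epithelial genes, among them 31 normalized counts of the milk protein gene Csn3, while the milk protein genes Csn2 and Wap were at 0 in all samples, and the part of that tissue in its Glycam1 level was not tested. These ratios are of 1 sample each and carry no replicate error.

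**Figure D2:**
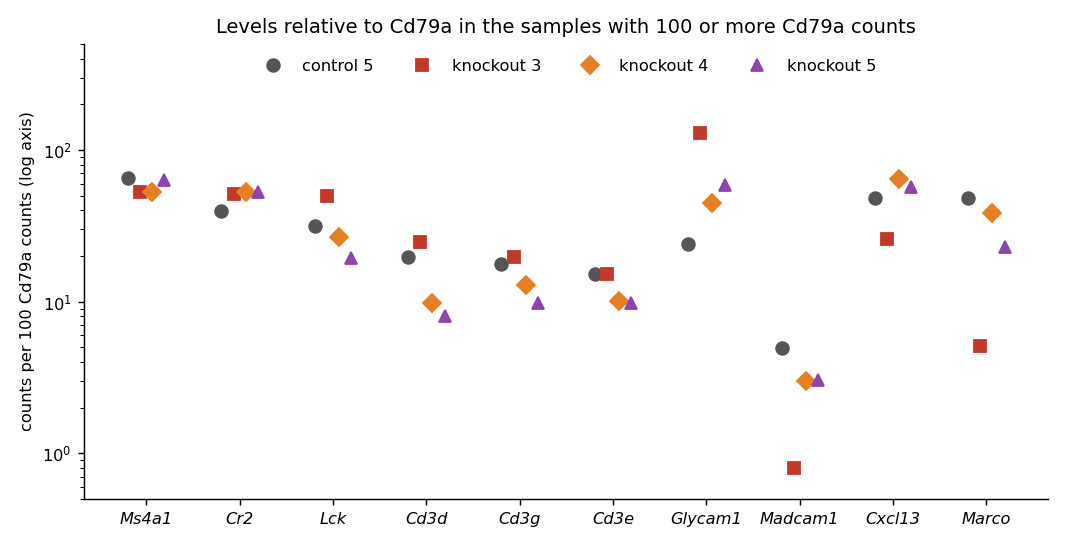
Counts of each gene per 100 counts of Cd79a, on a log axis, in the 4 samples with 100 or more Cd79a counts. Ms4a1 and Cr2 lie close together across samples, whereas Glycam1 spans 5.4-fold and Madcam1 6.13-fold, with knockout 3 at opposite ends.

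Variable gene segments of the antigen receptors gave a readout that the choice of the members did not use. Each lymphocyte clone uses its own segments, so a mixed population shows many. Of 216 immunoglobulin variable genes, 18, 7, 14, 4 and 129 were above 0 in controls 1 to 5, 5, 5, 70, 148 and 49 in knockout 1 to 5, and 16, 9, 5, 38 and 34 in D489V 1 to 5. Of 136 T cell receptor variable genes, 6, 3, 2, 0 and 38 were above 0 in controls, 1, 3, 24, 33 and 16 in knockout, and 5, 3, 3, 6 and 4 in D489V samples. The 4 samples with high member levels also held the most segments of both kinds. In these 4 the most abundant immunoglobulin segment took 4.38%, 6.74%, 4.15% and 7.41% of the immunoglobulin variable counts, so no single segment dominated. With 3 or more counts asked of a segment of either kind, control 5 had 103, knockout 3 had 30, knockout 4 had 103 and knockout 5 had 21, and the other 11 samples had 0 to 7. The many segments above 0 in D489V 4 and 5 were thus nearly all of 1 or 2 counts.

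**Figure D3:**
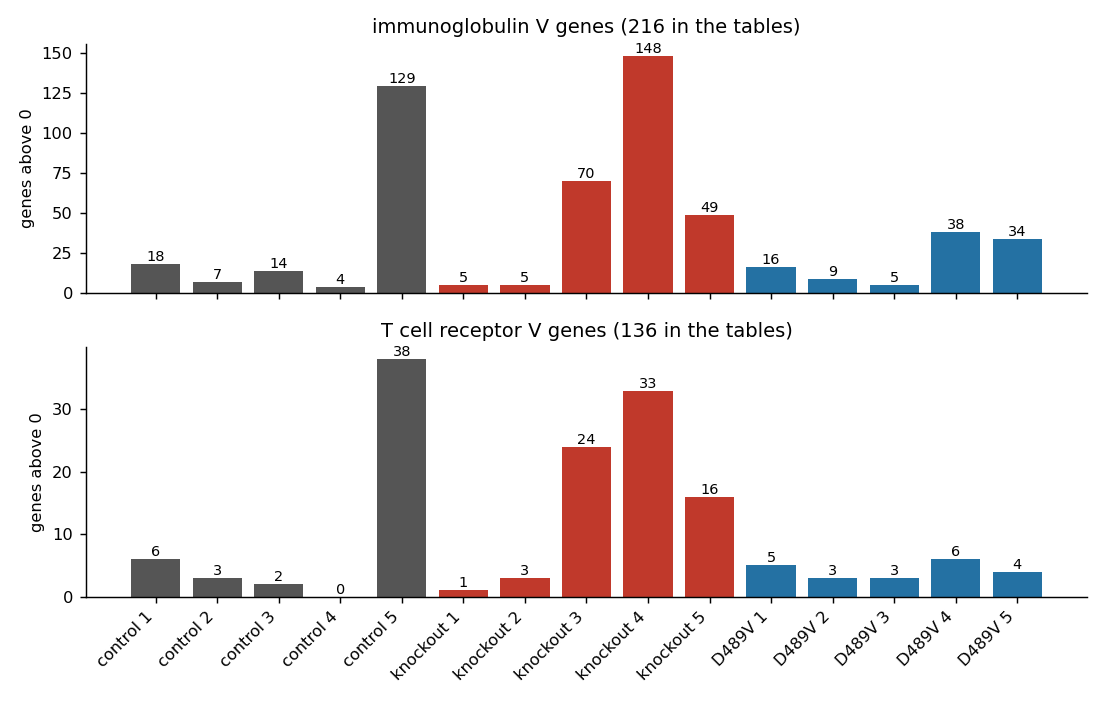
Number of immunoglobulin (top) and T cell receptor (bottom) variable genes above 0 in each of the 15 samples, with the count above each bar. Control 5 and knockout 3, 4 and 5 hold 49 to 148 immunoglobulin and 16 to 38 T cell receptor segments, and the other samples at most 38 and 6.

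Other genes of the same cell types moved with the members. Over all 15389 genes with a mean of 10 or more, 342 (2.22%) had control 5 and knockout 3, 4 and 5 as their 4 highest samples. Among the members 8 of the 8 with such a mean did so, a count that carries no weight because the 4 samples were first seen through these genes. On a list of 20 further B cell genes, 18 of 20 did so, among them Cd37, a tetraspanin of leukocytes, at 1599, 485, 1468 and 375 normalized counts in the 4 samples and at most 131 elsewhere. The exceptions were Blnk and Ighm. Ighm, the heavy chain of IgM, was at 5842 in knockout 1, where the 9 members summed to 14. On a T cell list, 16 of 20 did so, with Tcf7, a transcription factor of naive T cells, at 432, 211, 373 and 83 against at most 42. Among general leukocyte genes, 8 of 10 did so, with Ptprc, which encodes CD45, at 1716, 663, 1705 and 558 against at most 160. Without knockout 3, 2.89% of all genes had control 5 and knockout 4 and 5 as their 3 highest samples. So did 18 of 20 B cell, 16 of 20 T cell and 8 of 10 leukocyte genes. It was 3 of 7 for stroma and organiser signals, 4 of 9 for homing receptors and 1 of 6 for venule enzymes. For sinus macrophage and dendritic cell genes it was 5 of 10. These lists were drawn up with the members' pattern known.

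Some homing receptors of lymphocytes were also high in the 4 samples. Itgb7, a chain of the integrin that binds the Madcam1 product, was at 577, 239, 467 and 145 normalized counts in control 5 and knockout 3, 4 and 5, and at 30 to 52 in the others. Ccr7, the receptor that guides T cells into nodes, was at 225, 119, 203 and 42 against 2 to 27. Of the 9 homing receptors, 4 had the 4 samples highest. S1pr1, which endothelium also expresses, was among those that did not, at 798 to 1625 in all samples. Itga4, Cd44 and Cxcr4 did not either, and Itga4 was at 343, 549, 435 and 270 in the 4 samples and at 172 to 485 in the others. Of the enzymes that modify venule mucins, none with a mean of 10 or more had this pattern. Fut7, another of these enzymes but below that mean, did have it, with 10, 7, 17 and 12 counts in the 4 samples and at most 6 in the others. Chst4, a sulfotransferase of high endothelial venules, was also below that mean. It had 12, 2, 11 and 1 counts in the 4 samples and at most 1 in the others.

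Of the genes of node stroma and organiser signals with a mean of 10 or more, 3 of 7 had the 4 samples highest, namely Cxcl13, Lta and Ltb. Of those of sinus macrophages and dendritic cells, 3 of 10 did. Cxcl13, the chemokine of B cell follicles, was at 519, 97, 691 and 168 normalized counts, and at 0 to 40 in the other samples. Ltb, a lymphotoxin made by lymphocytes, was at 1005, 301, 719 and 229 against 4 to 42. Marco, a scavenger receptor of medullary macrophages in nodes and of marginal zone macrophages in spleen, was at 517, 19, 413 and 68 against 0 to 14. Per 100 Cd79a counts, Marco was at 48.0, 5.08, 38.5 and 22.9, so knockout 3 had the least. Siglec1, of sinus macrophages, was at 111, 23, 116 and 25 against 18 to 74, and Bst1, of stromal cells, at 64, 25, 86 and 21 against 1 to 22, so neither had the pattern. Both rows of Ccl21a and 1 of the 2 rows of Ccl19, chemokines of the T cell zone, were at 0 in all samples, and the other Ccl19 row reached 3. How reads that match several rows were counted is not given in the sources used here, so these zeros do not show that the RNA was absent. Lymphatic vessel genes did not share the pattern, with list sums of 756 to 785 in controls, 676 to 900 in the knockout group and 666 to 1065 in the D489V group.

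**Figure D4:**
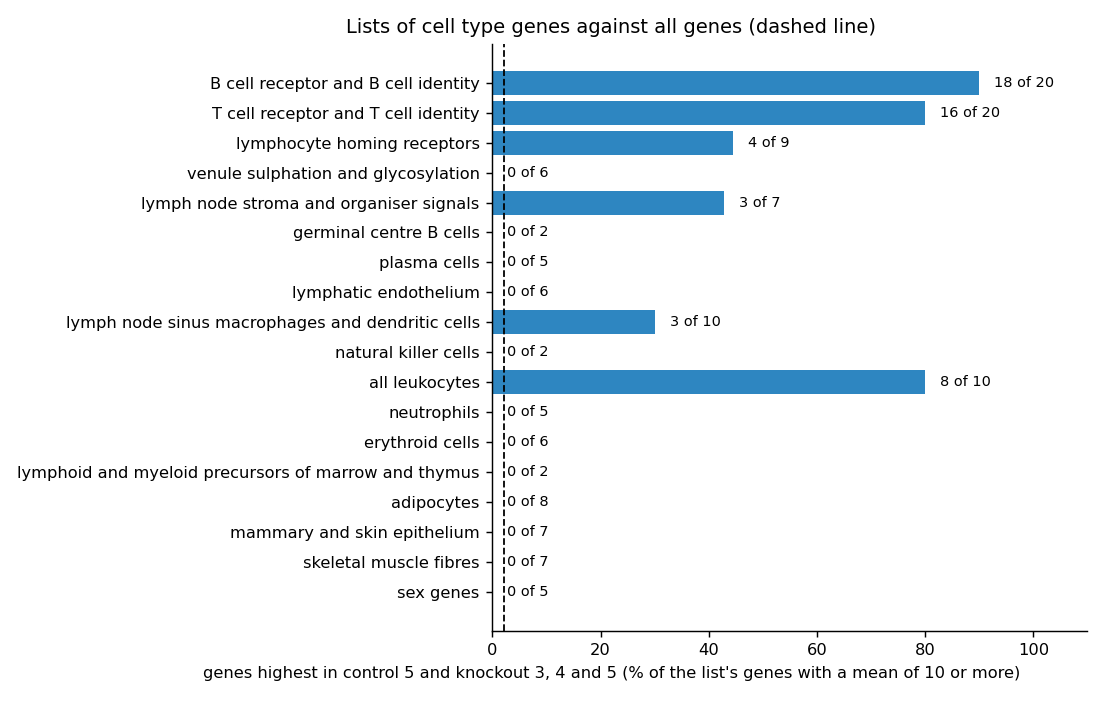
Share of each list's genes (those with a mean of 10 or more) whose 4 highest samples were control 5 and knockout 3, 4 and 5, with the counts beside each bar. The dashed line is the share over all genes, 2.22%, and the B cell, T cell and leukocyte lists lie far to its right.

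Other cell types that a dissected piece could hold did not have this order. No gene of the neutrophil, erythroid, adipocyte, plasma cell, natural killer, lymphatic or muscle fibre lists with a mean of 10 or more had the 4 samples highest. Only 2 natural killer genes had such a mean. Nkg7 came close, at 64, 26, 48 and 14 against at most 16, and Klrk1 was at 21, 13, 13 and 10 against at most 20. The natural killer list sum was 151, 68, 111 and 55 in the 4 samples, against at most 65 in the others. Adipocyte list sums were 9001 in control 5 and 14343, 20024 and 19250 in knockout 3, 4 and 5, against 7991 to 68969 in the other samples. Rag1 and Rag2, the recombinase genes of developing lymphocytes in marrow and thymus, were at 0 in control 5 and in knockout 3, 4 and 5, and at 5 and 2 in both D489V 4 and D489V 5. Dntt, which adds bases to receptor junctions in the same developing cells, was at 15, 3, 11 and 2 in the 4 samples against 0 to 3 elsewhere. Ngp, a granule gene of marrow neutrophils, was at 210 and 294 in D489V 4 and 5 and at most 40 elsewhere, while the member sums in these 2 samples were 153 and 86.

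The genes whose pattern was most like that of the 9 members were ranked by Pearson's r with their mean z-score, over 15 samples and 15381 other genes with a mean of 10 or more. The 12 highest were Galnt6, Cd37, Rasal3, Mir142hg, Cd22, Ptprcap, Acap1, Tespa1, Coro1a, Arhgap45, Cxcr5 and Ptprc, with r of 0.982 to 0.989. Galnt6, which encodes a glycosyltransferase that starts mucin-type sugar chains, was on none of the lists. It was at 186, 84, 168 and 51 normalized counts in control 5 and knockout 3, 4 and 5 and at 6 to 17 in the others. In all, 180 genes had r above 0.9 and 1 had r below -0.9. That gene was Nrk, a kinase gene, at 16, 16, 9 and 26 in the 4 samples and 33 to 89 in the others. Over the 14 samples without knockout 3, 187 genes had r above 0.9, Nrk had -0.932, and 11 of the 12 named genes were again among the first 12. These correlations are descriptions: the points share the library, and 4 samples set them.

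Against this spread within groups, the question was whether the members differed between knockout, D489V and control muscle. By group mean the order was knockout, control and D489V for 8 members, and control, knockout and D489V for Madcam1. Cd79a was at 352 ± 436 (SD, n = 5) normalized counts in knockout, 228 ± 475 in controls and 29.4 ± 13.8 in D489V samples. Glycam1 was at 227 ± 243 in knockout, 51.4 ± 115 in controls and 14.2 ± 13.6 in D489V samples. Without knockout 3, the knockout group was at 346 ± 503 (SD, n = 4) for Cd79a and 164 ± 227 for Glycam1, and its mean for Cd3d, 33.5, fell under that of controls, 44. By group median the order of the last 2 turned for most members: Cd79a had a median of 297 in knockout, 24 in D489V and 19 in control samples, and Ms4a1 had 188, 11 and 6. Without knockout 3 the knockout medians were 154 for Cd79a and 95.5 for Ms4a1. In either order, the values of neighbouring groups overlapped for all 9 members, and the tests are given below. The mean and the median differ because 1 control held nearly all of the control counts.

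Between knockout and control, all 9 members had a higher mean log2 value in knockout, with a median log2 change of 1.58 against 0.0212 over all genes in the fit without a filter, and none passed the test. The filter on low values left 3 members to be tested, Cd79a, Cd3g and Lck, with a median of 1.15 against 0.0106 over all genes tested. With limma, 0 of these 3 were called at an adjusted p under 0.05 and 0 had an unadjusted p under 0.05, while 0.00656% of all genes tested were called and 15.1% had an unadjusted p under 0.05. The log2 change of Cd79a was 1.58 (SE 1.69, limma adjusted p 0.645), and its 95% interval ran from -2.10 to 5.26. Lck had a change of 0.40 with an interval from -2.52 to 3.31. In a fit without the filter, 0 of 9 members and 0.00321% of all genes were called, and limma adjusted p-values were 0.627 to 0.901, with the greatest change in Glycam1, 3.45 with an interval from -0.95 to 7.86. The groups overlapped for all 9 members, while 2.24% of all genes had groups that did not overlap. Without control 5, the changes rose to between 1.31 for Lck and 5.06 for Glycam1. Without knockout 3, 8 of the 9 members stayed higher in knockout and Lck was at -0.20. The filter then left 2 members to be tested, and 0 were called.

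Between D489V and control, which used the same 5 controls, 4 members were higher and 5 lower in D489V. The median log2 change was -0.16 against 0.0225 over all genes in the fit without a filter, and also -0.16 over the 3 members tested, against 0.00189 over all genes tested. Of the 3 members tested, Cd79a, Ms4a1 and Lck, limma called 0, and 0 had an unadjusted p under 0.05, beside 0.0587% of all genes called and 9.43% with an unadjusted p under 0.05. Cd79a changed by -0.16 with an interval from -2.70 to 2.39 and Lck by -1.12 with an interval from -2.91 to 0.67. Without the filter, 0 of 9 members and 0.0425% of all genes were called, and Glycam1 had the greatest difference, 1.54 with an interval from -1.59 to 4.67. No member had groups that did not overlap, against 2.16% of all genes. The direction of several members rested on single samples. Without control 5, Cd79a was at 1.12, Ms4a1 at 2.08 and Glycam1 at 3.14, and of the 9 members only Lck, at -0.20, was lower in D489V. Ms4a1 was at -0.29 and Cr2 at -0.32 without control 4, and both were also lower without control 3. Cd79a was at 0.045 without D489V 3.

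Between knockout and D489V, all 9 members were higher in knockout, with a median log2 change of 1.74 against 0.0 over all genes in the fit without a filter. Over the 5 members tested it was also 1.74, against 0.000402 over all genes tested. Of 5 members tested, Cd79a, Ms4a1, Cr2, Lck and Glycam1, limma called 0, and 0 had an unadjusted p under 0.05, whereas 20.8% of all genes tested were called in this comparison and 37.7% had an unadjusted p under 0.05. Cr2 differed by 2.01 with an interval from -1.23 to 5.26 (limma adjusted p 0.344). Without the filter 0 of 9 members and 7.36% of all genes were called. In that fit Cd3d differed by 2.56 with a limma adjusted p of 0.125 and Cd3e by 2.02 with an adjusted p of 0.184, the 2 of 9 members with an unadjusted p under 0.05, a share near the 21.9% of all genes. The groups overlapped for all 9 members, against 13.9% of all genes whose groups did not. Knockout samples lay both above and below the D489V range: for Lck, knockout 1 and 2, at 2 and 5, were under every D489V sample, and knockout 3, 4 and 5, at 58 to 285, were over every one. Without knockout 3 all 9 members stayed higher in knockout, and 0 of the 4 that the filter left to be tested were called. Of the other B and T cell list genes, 1 was called in any of the 3 comparisons, Btk, a kinase of the B cell receptor pathway, which rose by 1.68 on the log2 scale in knockout against D489V (limma adjusted p 0.0466). Btk was at 21, 22, 52, 202 and 89 normalized counts in knockout and 16, 11, 12, 22 and 23 in D489V samples, so the groups overlapped. Its call ended in 10 of the 21 alternatives run. It ended without knockout 3, 4 or 5 or D489V 1, 2 or 3, with limma adjusted p-values of 0.0751 to 0.105, and also without the filter (0.0692), with upper-quartile rescaling (0.0521), with all 15 samples in one fit (0.115) and without knockout 3, 4 and 5 together (0.511). The lowest adjusted p was 0.0281. On the lists of other cell types, limma called only genes lower in knockout against D489V. These were St3gal4 of the venule enzymes, Zbtb46 of the dendritic cell list, 6 of 8 adipocyte genes and 5 of 5 erythroid genes tested.

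**Figure D5:**
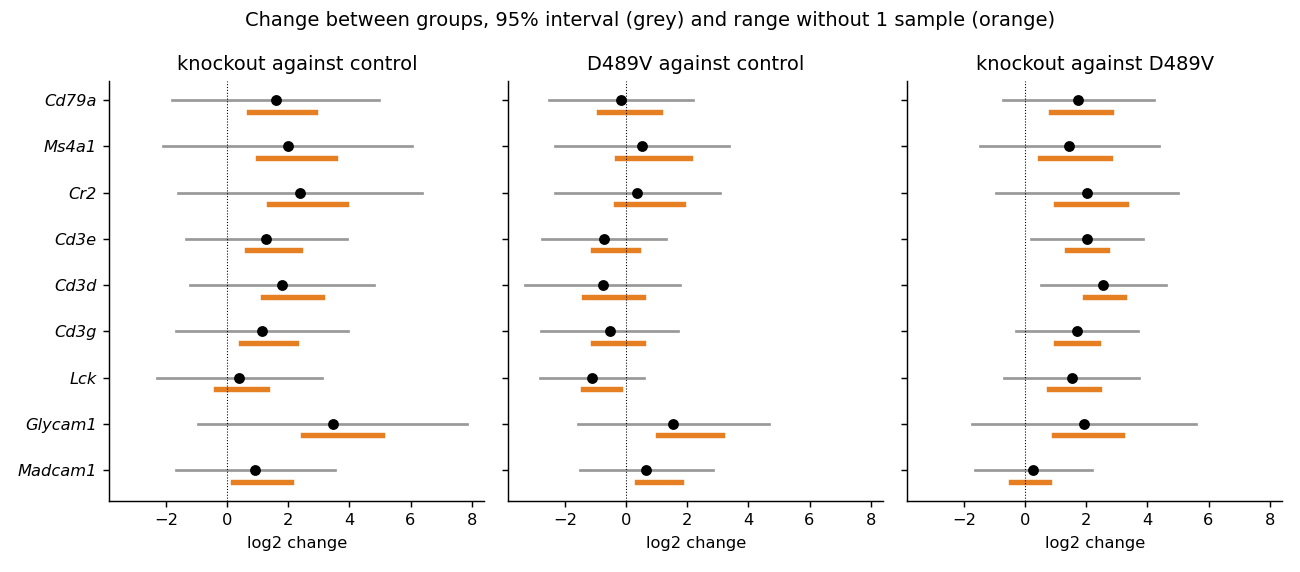
Log2 change of each member (black points) with its 95% interval in the limma fit without a filter (grey) and the range of values when 1 sample is left out (orange), for the 3 comparisons of 5 against 5 samples. Grey intervals hold 0 for all members in the first 2 comparisons, and for all but Cd3e and Cd3d in the third.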

How the data were processed

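RNA of 15 muscle samples was poly(A) enriched and made into directional libraries, per the labels' protocols. The deposited tables hold a score, namely normalized counts per gene that the authors rounded off to integers; the normalization is stated by the tables' name. Trim Galore 0.6.0, cutadapt, FastQC, STAR 2.7.0e, DESeq2 1.26.0 and GRCm38 are named in the submitters' processing notes. The normalization formula is not given in the sources used here. Groups and replicate numbers came from the labels, which do not say how samples were dissected or pooled, so p-values measure the spread between these samples.

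Names, positions and exon lengths came from GENCODE M21 on GRCm38, which held all 55536 identifiers. Whole reads were not recovered from the rounded values, so tests on counts were not run and the read depth is unknown. The limma package 3.58.1 (R 4.3.3) compared each pair of groups with a two-sided moderated test and variance trend. Values entered as log2(value + 1), and genes were kept at 10 or more in at least 5 of 10 samples, with Benjamini-Hochberg adjustment over all genes tested and a threshold of 0.05. This scale understates changes of low genes, and the filter removed members that were high in few samples, so the fit without a filter is given beside it. The fit was tested on simulated data. The text names the 9 members, Pdgfrb, up to 4 abundant genes per list with genes called or at 0, and the 12 genes most like the members. Adipocyte and erythroid genes called are given as counts only. Genes named outside this rule, such as Chst4, Csn3, Ccr7, Rag1 and Ngp, were chosen after their values were seen. The members and the 18 other lists were chosen with earlier results of these data known. Alternatives changed the pseudocount, filter, scaling, variance model and weights, added a replicate block, and left out each sample. Tables and plots were made in Python 3.11.15 (pandas 2.3.3, numpy 2.4.6, matplotlib 3.10.9). Some genes of these lists are not reported here.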

Additional observations from a re-analysis of the deposited data

Results flagged for a closer look

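In 84 sets of 5 values (the members, list sums and receptor segments in each group), 13 had 1 sample far from the others. Its gap to the nearest neighbour was more than 0.71 of the range. Gaps and ranges of members and list sums were taken on log2(value + 1), and those of receptor segments on plain numbers of genes. About 4.2 would be expected by chance if the sets were independent, since chance then marks about 1 in 20. The sets share samples and related genes, so 13 against 4.2 does not measure an excess over chance.

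Control 5 was the far sample in 9 of the flagged sets. Its gap was 0.771 of the control range for Cr2, 0.827 for Cd3e and 0.879 for Lck, with 427, 164 and 342 normalized counts. For Glycam1 and Madcam1 the gap was the whole range (1.0), because the other 4 controls were at 0. The gap was 0.891 for the T cell list, 0.893 for the stroma and organiser list and 0.945 for general leukocyte genes. It was 0.877 for receptor segments, of which control 5 had 167.

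Knockout 3 was low for the plasma cell list, with a sum of 217 and a gap of 0.801, and high for the epithelium list, with a sum of 838 and a gap of 0.83. D489V 3 was low for the natural killer list, with a sum of 15 and a gap of 0.76, and high for the epithelium list, with a sum of 2902 and a gap of 0.847, of which Krt5 and Krt14 of basal epithelium made 1439 and 961.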

How the results depend on the processing

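Under every alternative run, 0 of the members tested were called in each of the 3 comparisons. Their limma adjusted p-values were 0.336 to 0.976 for knockout against control, 0.503 to 0.999 for D489V against control and 0.0725 to 0.874 for knockout against D489V. All 9 members were tested only without the filter. For knockout against control without control 5 and knockout 3, 4 and 5, 0 were tested, so none could be called there. For knockout against D489V without knockout 3, 4 and 5, 1 was tested. Leaving out 1 sample moved Lck in knockout against control between -0.36 and 1.31, lower without knockout 3 or 4. In D489V against control the ranges were -0.90 to 1.12 for Cd79a, -0.29 to 2.08 for Ms4a1, -0.32 to 1.86 for Cr2, -1.07 to 0.37 for Cd3e, -1.39 to 0.54 for Cd3d and -1.10 to 0.55 for Cd3g. Madcam1 in knockout against D489V ranged from -0.48 to 0.78. With a pseudocount of 5, D489V against control gave -0.11 for Ms4a1, -0.25 for Cr2 and -0.043 for Madcam1, and with array weights 0.078 for Cd79a. The cause was not tested.

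Settings without the samples high in the members were added, 1 for each of 2 comparisons, after the data were seen. Those samples were picked by the members' own levels, so the values are no independent evidence of direction. Without control 5 and knockout 3, 4 and 5, knockout against control was -0.74 for Cd79a, -0.74 for Ms4a1, -0.46 for Cr2, -0.042 for Cd3e, -0.33 for Cd3g, -1.76 for Lck, 0.59 for Cd3d, and 0 for Glycam1 and Madcam1. Without knockout 3, 4 and 5, knockout against D489V was -1.86 for Cd79a, -2.82 for Ms4a1, -2.32 for Cr2, -0.41 for Cd3e, -0.88 for Cd3g, -1.55 for Lck, -3.14 for Glycam1, -1.81 for Madcam1 and 0.050 for Cd3d.

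With the replicate number as a block, 0 members were called in each comparison and 1, 7 and 2208 genes overall. The deviations of same-numbered samples from their group means had r from -0.48 to 0.47. In the 3 comparisons, 2, 2 and 1 of 5 numbers matched best with themselves. A pairing by number was thus not shown, but so few pairs cannot exclude one. Over all genes, the number called varied from 1 to 16 for knockout against control (1 as reported), from 1 to 86 for D489V against control (9 as reported), and from 586 to 4458 for knockout against D489V (3181 as reported), the 586 without knockout 3, 4 and 5. With 3 or more counts per segment, control 5 and knockout 4 had 103 receptor segments each. With 5 samples a group and 1 to 3 of them high, intervals of the members spanned several log2 units.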
